A study of Rattus norvegicus with 26 samples.

Results

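The genes Atf3, Jun, Sox11, Gadd45a, Gap43, Gal and Sprr1a are followed here through spinal cord injury and a stem cell graft in the rat. They were picked by symbol as axon regeneration-associated genes, each symbol matched 1 entry of the count table, and they make up 7 of its 32883 genes. All 7 had enough counts to be among the 17990 genes tested. When a peripheral axon is cut, its neuron switches on transcription factors such as Atf3, Jun and Sox11, which drive growth effectors such as Gap43 and Sprr1a and the peptide galanin, encoded by Gal. Neurons whose axons run wholly within the brain and spinal cord mount this programme weakly, which is one reason why cord axons regrow poorly. Several of these genes are not specific to neurons, since Atf3, Jun and Gadd45a also answer stress in glia, macrophages and fibroblasts.

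The study asked how mesenchymal stem cells from human umbilical cord (hUC-MSCs) change the transcriptome of the injured rat cord. Bulk RNA-seq was made from spinal cord of wild type Sprague-Dawley rats aged postnatal day 70, adult females of 250 g, in 26 libraries. Injury was a clip compression at T10 with a force of 60 g for 1 min, and segments of 5 mm around the lesion were taken. The 4 Intact libraries came from rats labelled untreated, which the study describes as intact or sham. The 3 sub-SCI libraries came from rats with subacute injury, the state at 7 days after compression in which the transplant was given. The +PBS rats received phosphate-buffered saline into the lumbar intrathecal space at that time, and cord was collected at 1 (+PBS-1w, n = 3), 2 (+PBS-2w, n = 2) and 4 (+PBS-4w, n = 4) weeks post-transplantation (wpt). The +MSC rats received hUC-MSCs instead, with cord collected at 1 (+MSC-1w, n = 3), 2 (+MSC-2w, n = 3) and 4 (+MSC-4w, n = 4) wpt. By the study's methods rats were given cyclosporin A every day, which suppresses rejection of the human cells and is not named group by group, and the vertebral arch was opened before compression. There was no rat that was injured and never injected beyond the sub-SCI time, so time after injury and the PBS injection cannot be told apart in the +PBS groups. The labels do not say whether each library is a separate rat, so the p-values measure the spread between libraries. For the 2-week groups the study's methods name +MSC-2w as the one with fewer libraries, whereas the labels and the count table's columns give +PBS-2w, and the labels are followed here.

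Total counts ran from 19496602 to 43468509 per library. Levels are given as CPM, counts divided by the library total after TMM scaling, and levels of different genes are compared as CPM per kilobase of gene (CPM per kb). A gene was called higher or lower when its log2 fold change exceeded 1 in size and its adjusted p was under 0.01 in the quasi-likelihood test of edgeR, adjusted over all genes tested by Benjamini and Hochberg, and every adjusted p below is from that test unless DESeq2 is named. Errors are SD for levels and standard errors (SE) for log2 fold changes. The tissue held RNA of all its usual cell types, and its make-up moved with injury. The sum of 14 neuron markers was 10329 to 12777 CPM in Intact and 550 to 2271 CPM in sub-SCI, and that of 8 microglia and macrophage markers was 268 to 568 CPM in Intact and 4454 to 5311 CPM in sub-SCI. In bulk tissue, fewer cells of a type and less RNA per cell cannot be told apart.

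In intact cord the 7 genes covered a wide range of levels. Gap43 stood highest at 78.2 ± 4.49 CPM per kb (SD, n = 4), followed by Jun at 32.6 ± 7.30, Gadd45a at 20.2 ± 2.01 and Gal at 14.4 ± 2.45 CPM per kb. Sox11 at 0.885 ± 0.151 and Atf3 at 0.695 ± 0.187 CPM per kb did not differ beyond their spread, and Sprr1a was close to 0, with 1 read in all over the 4 libraries. In sub-SCI the order was different. Jun at 88.0 ± 12.0, Gadd45a at 82.9 ± 14.4 and Gap43 at 82.2 ± 26 CPM per kb (n = 3) were level within their spread, Atf3 had passed Gal with 28.1 ± 2.96 against 8.26 ± 2.83 CPM per kb, and Sprr1a at 2.20 ± 1.16 and Sox11 at 1.96 ± 0.581 CPM per kb came last.

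**Figure D1:**
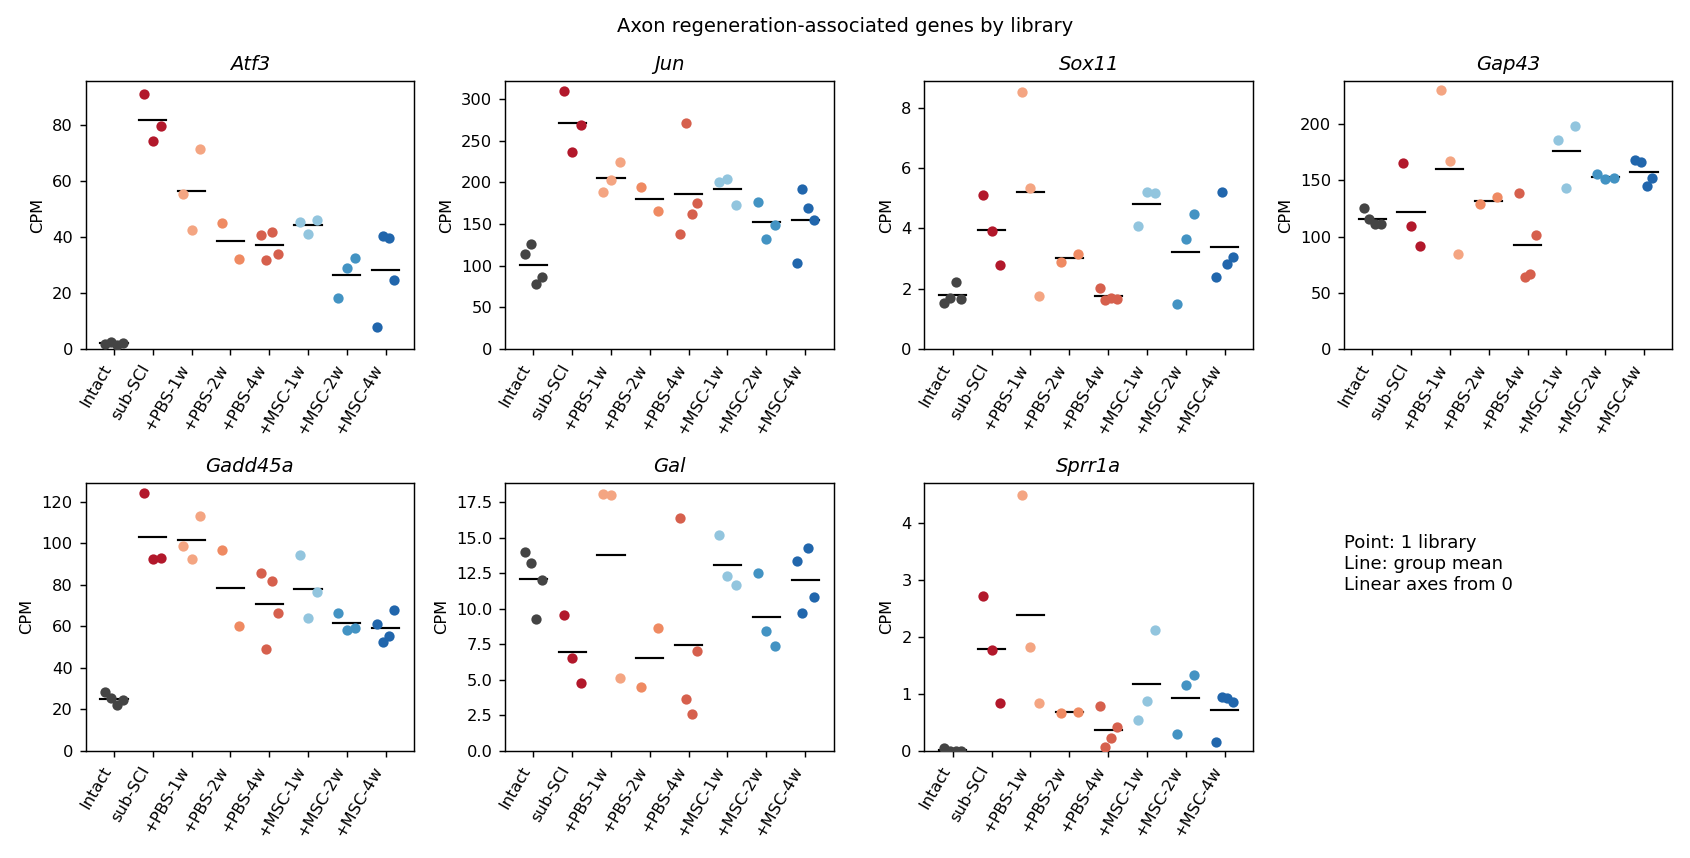
CPM of the 7 genes in each of 26 libraries, on linear axes from 0, with 1 point per library and a line at the mean of each of 8 groups. Atf3, Gadd45a and Sprr1a lay above all Intact libraries in all 22 injured libraries, whereas Gap43 and Gal lay on both sides of the Intact range.

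In sub-SCI 4 of the 7 genes rose over Intact (Atf3, Jun, Gadd45a and Sprr1a) and none fell. Of all genes tested, 16.6% were called higher and 17.5% lower in the same comparison. The members' median log2 fold change was 1.43, beside -0.02 over all genes. Against the same Intact libraries, 5 members were called higher in +PBS-1w (13.5% of all genes), 3 in +PBS-2w (8.84%) and 3 in +PBS-4w (13.3%). In the cell-treated cord the counts were 4 in +MSC-1w (7.87% of all genes), 3 in +MSC-2w (5.60%) and 3 in +MSC-4w (7.25%). The 7 comparisons share the 4 Intact libraries. Atf3, Gadd45a and Sprr1a were called higher in every one of them, Jun and Sox11 in some, and Gap43 and Gal in none. For 3 members, Atf3, Gadd45a and Sprr1a, every one of the 22 injured libraries was above every Intact library, which held for 10.3% of all genes tested.

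Atf3 is a stress-inducible transcription factor of the ATF/CREB family that pairs with Jun, and it is widely used as a mark of injured neurons. Intact cord held 1.91, 2.70, 1.39 and 2.09 CPM, and sub-SCI cord 91.2, 74.3 and 79.7 CPM. Every sub-SCI library was far above every Intact library, and the log2 fold change was 5.33 (SE 0.395, adjusted p = 4.95e-10), a 40.2-fold rise. The +PBS libraries held 55.2, 42.6 and 71.5 CPM at 1 wpt, 45.0 and 32.3 CPM at 2 wpt and 40.9, 31.8, 41.8 and 34.0 CPM at 4 wpt. All 9 stood below the lowest sub-SCI library and above the highest Intact library. The change from Intact was 4.80 (adjusted p = 3.05e-09), 4.25 (adjusted p = 7.17e-08) and 4.19 (adjusted p = 1.63e-08) on the log2 scale at 1, 2 and 4 wpt. From sub-SCI to +PBS-4w the log2 fold change was -1.14 (SE 0.332, 95% interval -1.83 to -0.45, adjusted p = 0.0155), which edgeR did not call and DESeq2 on all libraries did (-1.18, adjusted p = 0.00452).

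Jun is the transcription factor at the centre of the AP-1 complex and is needed for axon regrowth after nerve injury. Its levels were 114, 126, 77.9 and 86.0 CPM in Intact and 310, 236 and 269 CPM in sub-SCI, with no overlap. The rise was 1.43 on the log2 scale (SE 0.212, adjusted p = 5.6e-06), much smaller than that of its partner Atf3 but on a higher base. In +PBS cord the libraries held 189, 203 and 224 CPM at 1 wpt, 194 and 166 CPM at 2 wpt and 138, 271, 162 and 175 CPM at 4 wpt. All 9 were above every Intact library. Jun was called higher at 1 wpt, just past the fold threshold (log2 fold change 1.03, SE 0.212, adjusted p = 0.00035), and the call was lost when Intact replicate 3 (0.92), Intact replicate 4 or +PBS-1w replicate 3 was left out. At 2 and 4 wpt the log2 fold changes of 0.84 (adjusted p = 0.00848) and 0.89 (adjusted p = 0.00078) met the p threshold and not that of fold.

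Sox11 encodes a transcription factor of developing neurons that is reactivated in regenerating sensory neurons, and here it rested on few reads, 28 to 287 per library. Intact cord held 1.53, 1.70, 2.22 and 1.67 CPM and sub-SCI 5.12, 3.91 and 2.78 CPM. The groups did not overlap, and the log2 fold change of 1.14 (SE 0.392, adjusted p = 0.0152) missed the p threshold in edgeR and passed it in DESeq2 on all libraries (1.17, adjusted p = 0.00909). At 1 wpt the +PBS libraries were spread from 1.76 through 5.33 to 8.53 CPM, 1 of them within the Intact range. The call there (log2 fold change 1.55, SE 0.391, adjusted p = 0.00212) was lost without +PBS-1w replicate 1, the highest library, when the value was 1.00. By 4 wpt the +PBS libraries, at 2.01, 1.62, 1.70 and 1.65 CPM, were back within the range of Intact (log2 fold change -0.03, adjusted p = 0.959).

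Gadd45a, a stress-induced gene that restrains cell division and takes part in DNA demethylation, was called higher in all 7 comparisons with Intact. It had 28.1, 25.6, 22.1 and 24.6 CPM in Intact and 124, 92.3 and 93.0 CPM in sub-SCI. The rise of 2.04 on the log2 scale (SE 0.184, adjusted p = 6.64e-09) was larger than the spread within either group. The +PBS libraries held 98.5, 92.6 and 113 CPM at 1 wpt, 96.6 and 60.3 CPM at 2 wpt and 85.6, 48.8, 81.7 and 66.2 CPM at 4 wpt. The lowest of all injured libraries, at 48.8 CPM, was still above the highest Intact library at 28.1 CPM. The log2 fold changes from Intact were 2.01, 1.65 and 1.49 at 1, 2 and 4 wpt, with adjusted p-values of 1.55e-08, 1.84e-06 and 4.92e-07.

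Gap43, a membrane protein of the growth cone and a classic sign of axon growth, did not pass the test in any comparison with Intact. Its Intact libraries lay close together at 125, 116, 111 and 111 CPM, while the sub-SCI libraries were at 165, 109 and 91.3 CPM, on both sides of them. The log2 fold change was 0.07 (SE 0.264, adjusted p = 0.828), with a 95% interval from -0.48 to 0.62. In the same sub-SCI libraries the summed neuron markers stood at 550 to 2271 CPM against 10329 CPM or more in Intact. At 1 wpt the +PBS libraries ran from 84.2 through 167 to 230 CPM, at 2 wpt they held 129 and 135 CPM, and at 4 wpt 139, 64.2, 67.0 and 101 CPM. The spread among +PBS libraries was several times that in Intact, with 5 of the 9 above and the other four below the whole Intact range.

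Gal, which encodes the neuropeptide galanin, was not called either. It had 14, 13.2, 9.30 and 12.0 CPM in Intact and 9.53, 6.56 and 4.81 CPM in sub-SCI. The log2 fold change of -0.80 (SE 0.472, adjusted p = 0.149) did not pass the test. The +PBS libraries held 18.1, 18.0 and 5.16 CPM at 1 wpt, 4.51 and 8.62 CPM at 2 wpt and 16.4, 3.67, 2.59 and 7.02 CPM at 4 wpt. At 1 wpt replicate 3 stood far below the other two, and at 4 wpt replicate 1 stood far above the others. The log2 fold change in +PBS-4w was -0.70 (adjusted p = 0.181), and without +PBS-4w replicate 1, the 16.4 CPM library, it was -1.41 and passed the thresholds.

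Sprr1a encodes a small proline-rich protein of the skin's cornified envelope that is also strongly induced in axotomised sensory neurons. It was the rarest member. Intact libraries had 1, 0, 0 and 0 reads, and the sub-SCI libraries 94, 49 and 25 reads, or 2.73, 1.78 and 0.848 CPM. Summed over libraries the sub-SCI level was 162 times that of Intact, with a 95% interval from 28.6 to 6430 that covers counting error only. The fitted log2 fold change, 6.80 (SE 1.12, adjusted p = 1.98e-05), depends on the prior count because Intact had only 1 read, and it was 8.64 without Intact replicate 1, which held it. In +PBS cord the libraries had 151, 49 and 21 reads in +PBS-1w, 21 and 22 reads in +PBS-2w and 21, 2, 5 and 9 reads in +PBS-4w. The summed level over that of Intact was 228 (40.5 to 9040) at 1 wpt, 59.9 (10.2 to 2420) at 2 wpt and 32.8 (5.53 to 1330) at 4 wpt. The call at 4 wpt (adjusted p = 0.00399) was lost when Intact replicate 2, 3 or 4 or +PBS-4w replicate 1 was left out, and that at 2 wpt when +PBS-2w replicate 1 was. Markers of keratinocytes, the main source of the protein in skin, summed to 5.94 to 7.21 CPM in sub-SCI and 5.45 to 9.02 CPM in Intact. These ranges overlapped and lay above the level of Sprr1a itself, and a skin source of its reads was not tested.

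**Figure D2:**
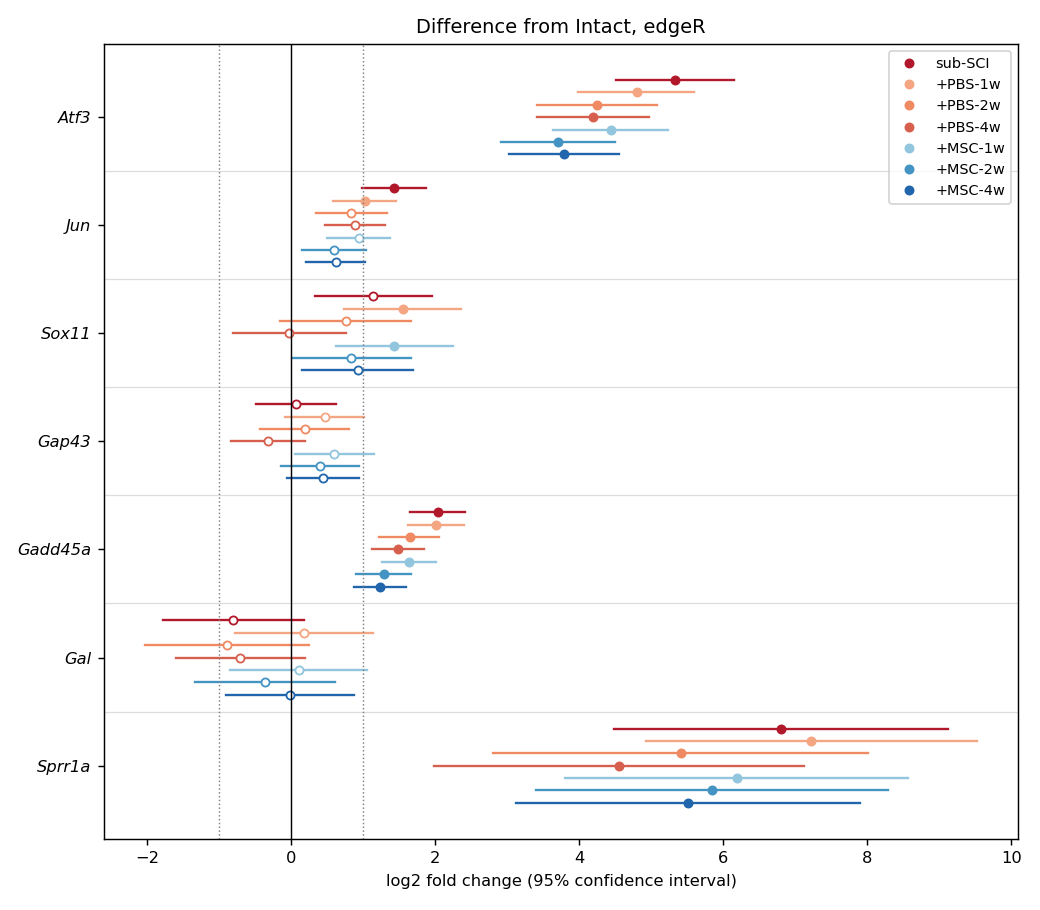
Log2 fold change of each gene from Intact (x axis) in 7 injured groups, with 95% confidence intervals from edgeR; filled points were called, open points were not, and dotted lines mark a log2 fold change of 1 in either direction. Atf3, Gadd45a and Sprr1a were called in every group, and all points of Gap43 and Gal are open.

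The promoter of Sprr1a is shown because Atf3 and Jun, whose products bind AP-1 and CRE elements, also rose over Intact in sub-SCI. RefSeq promoters on GRCr8 were on hand for 4 of the 7 genes (Sox11, Gadd45a, Gal and Sprr1a), and the 250 bases before each annotated start were searched on both strands for the AP-1 element TGACTCA, which reads TGAGTCA on the other strand, and the palindromic CRE TGACGTCA. The 250 bases of Sprr1a lie at chr2:180752626-180752875 on the minus strand, and those of Gal, a member that did not rise, at chr1:210084573-210084822 on the minus strand; capitals mark AP-1 matches.
Sprr1a: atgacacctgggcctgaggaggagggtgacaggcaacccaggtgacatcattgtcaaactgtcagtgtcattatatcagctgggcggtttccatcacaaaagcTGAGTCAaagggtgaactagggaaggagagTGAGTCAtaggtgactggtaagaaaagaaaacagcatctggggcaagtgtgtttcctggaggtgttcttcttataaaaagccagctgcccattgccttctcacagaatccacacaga
Gal: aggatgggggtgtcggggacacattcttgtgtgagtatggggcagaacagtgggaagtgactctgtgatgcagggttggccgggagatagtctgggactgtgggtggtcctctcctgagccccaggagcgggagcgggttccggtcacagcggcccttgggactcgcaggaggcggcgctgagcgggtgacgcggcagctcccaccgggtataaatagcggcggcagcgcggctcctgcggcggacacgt
Sprr1a held 2 AP-1 matches, which begin 147 and 117 bases before its start, and no CRE. Neither element was found in the windows of Sox11, Gadd45a and Gal, and of these Gadd45a was also called higher in sub-SCI. Of 33469 rat promoter windows of this length, 4.05% held the AP-1 element, 0.117% held it 2 times or more and 1.59% held the CRE. A match describes these letters only, and no binding was measured.

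Later levels were also set against sub-SCI, and none of the 7 genes was called between it and +PBS-1w or +PBS-4w. Among all genes 0.106% were called lower in +PBS-1w and 3.09% in +PBS-4w. At an unadjusted p under 0.05, there were 0 members in the first and 5 in the second comparison, all 5 lower. Of all genes, 18.6% had such a p in the first comparison in either direction, and 16.8% had it in the second with a lower level. In +PBS-4w against sub-SCI the log2 fold change was -2.25 (SE 0.714, adjusted p = 0.0248) for Sprr1a, -1.17 (SE 0.391, adjusted p = 0.0322) for Sox11, -0.55 (SE 0.180, adjusted p = 0.0308) for Gadd45a and -0.54 (adjusted p = 0.0648) for Jun. For Atf3, Sox11, Gadd45a and Sprr1a every +PBS-4w library was below every sub-SCI library, which held for 13.8% of all genes tested. DESeq2 fitted to the groups compared called 2 members lower, Atf3 and Sox11, and in edgeR Sprr1a was called when +PBS-4w replicate 1 was left out (-2.96).

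The effect of the cells was read against +PBS at the same time. None of the 7 genes was called at 1 wpt, 2 wpt, 4 wpt or over the mean of the 3 weeks, in edgeR or in DESeq2. Among all genes 0.0111% were called in either direction at 1 wpt, 0% at 2 wpt, 0.495% at 4 wpt and 2.57% over the 3 weeks. At an unadjusted p under 0.05 there were 0, 0 and 2 members at 1, 2 and 4 wpt and 3 over the 3 weeks, beside 17.9%, 12.3%, 22.5% and 36.2% of all genes, so that the 3 of 7 lay near the background. Over all genes at 2 wpt, where edgeR called 0, 2219 had an unadjusted p under 0.05 and DESeq2 on all libraries called 3 higher and 21 lower.

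The 2 members at 4 wpt were Gap43 and Sox11, both with higher values in +MSC. Gap43 held 168, 166, 145 and 152 CPM in +MSC-4w, against 139, 64.2, 67.0 and 101 CPM in +PBS-4w. All 4 cell-treated libraries were above all 4 PBS libraries, and the log2 fold change was 0.76 (SE 0.246, adjusted p = 0.0798 in edgeR), with a 95% interval from 0.25 to 1.27. Sox11 held 2.39, 5.20, 2.83 and 3.05 CPM in +MSC-4w against at most 2.01 CPM in +PBS-4w, again with no overlap (log2 fold change 0.95, SE 0.368, adjusted p = 0.131 in edgeR, interval 0.19 to 1.72). Among all genes tested, 6.08% were above +PBS-4w in every +MSC-4w library and 11.2% were higher at an unadjusted p under 0.05. The neuron markers were also higher, at 6156 to 7568 CPM in +MSC-4w and 1852 to 6395 CPM in +PBS-4w, and their part in the difference of Gap43 and Sox11 was not tested. Without +PBS-4w replicate 1, the library with the highest Gap43 and neuron signal of its group, the log2 fold change of Gap43 was 1.00 with an adjusted p of 0.00954. Before rounding it did not exceed the fold threshold, so Gap43 was not called there either. Without +PBS-4w replicate 2 the log2 fold change was 0.62 with an adjusted p of 0.202. The other alternatives gave adjusted p-values from 0.0153 to 0.195.

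Against Intact, Gap43 was not called in cell-treated cord at any time, though its values were higher. The +MSC libraries held 186, 143 and 198 CPM at 1 wpt and 156, 151 and 152 CPM at 2 wpt, so that all 10 +MSC libraries, from 143 to 198 CPM, were above the highest Intact library at 125 CPM. This held for 12.3% of all genes tested, and 5 of the 9 +PBS libraries were above the highest Intact library too. The log2 fold changes from Intact were 0.60 (adjusted p = 0.0827), 0.40 (adjusted p = 0.304) and 0.44 (adjusted p = 0.175) at 1, 2 and 4 wpt. The +MSC libraries lay closer together than the +PBS libraries, which ran from 64.2 to 230 CPM. Over the 3 weeks the log2 difference between +MSC and +PBS was 0.37 (SE 0.164, adjusted p = 0.108 in edgeR).

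For Gal and Sprr1a the treatments overlapped. Gal held 15.2, 12.3 and 11.7 CPM in +MSC-1w, 12.5, 8.45 and 7.40 CPM in +MSC-2w and 13.4, 9.70, 14.3 and 10.8 CPM in +MSC-4w, 2 of the 10 above the highest Intact library. Its log2 fold change over +PBS was -0.07, 0.53 and 0.69 at 1, 2 and 4 wpt, and the interval at 4 wpt ran from -0.20 to 1.59. Without +PBS-4w replicate 1 the value at 4 wpt was 1.42, not called. Sprr1a had 18, 24 and 54 reads in +MSC-1w, 7, 28 and 26 in +MSC-2w and 4, 43, 26 and 20 in +MSC-4w. Its level over the 4 Intact libraries was 98.2 (17.2 to 3920), 79.3 (13.7 to 3180) and 67.1 (11.7 to 2680) at 1, 2 and 4 wpt by summed counts, and its log2 difference from +PBS was -1.03, 0.43 and 0.96. At 4 wpt the interval from -0.48 to 2.40 spans 0. These Sprr1a values became -0.19 at 1 wpt without +PBS-1w replicate 1, -1.76 without +MSC-1w replicate 3, and 1.64 at 4 wpt without +PBS-4w replicate 1.

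The stress-linked members had lower mean levels in +MSC than in +PBS, without a call. Atf3 held 45.4, 41.0 and 46.2 CPM in +MSC-1w, 18.2, 29.1 and 32.4 CPM in +MSC-2w and 8.04, 40.2, 39.6 and 24.6 CPM in +MSC-4w. The 8.04 CPM library, replicate 1, also had the lowest Jun, Sox11 and Sprr1a of its group and the highest Gap43. The log2 differences from +PBS were -0.35, -0.54 and -0.40, and over the 3 weeks -0.43 (SE 0.206, adjusted p = 0.137 in edgeR). At 4 wpt the Atf3 difference was -0.09 without +MSC-4w replicate 1 and -0.62 without +MSC-4w replicate 2. Gadd45a held 94.1, 63.9 and 76.4 CPM in +MSC-1w, 66.3, 58.4 and 59.3 CPM in +MSC-2w and 61.1, 52.3, 55.5 and 67.8 CPM in +MSC-4w. Its differences of -0.37, -0.36 and -0.25 gave -0.33 over the 3 weeks (SE 0.112, adjusted p = 0.0381), which meets neither threshold. Jun held 201, 204 and 173 CPM in +MSC-1w, 176, 132 and 149 CPM in +MSC-2w and 103, 192, 169 and 155 CPM in +MSC-4w, and differed from +PBS by -0.09, -0.24 and -0.27. Its difference at 4 wpt was -0.04 without +PBS-4w replicate 2 and -0.42 without +PBS-4w replicate 1. The summed microglia and macrophage markers ran from 1380 to 2907 CPM in +MSC and from 2756 to 5010 CPM in +PBS. The 8 fibroblast markers summed to 1725 to 2718 CPM in +MSC-1w against 3516 to 7942 CPM in +PBS-1w, to 379 to 781 against 1361 to 1922 CPM at 2 wpt, and to 615 to 2198 against 1077 to 3907 CPM at 4 wpt. The part of either cell type in these differences was not tested.

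**Figure D3:**
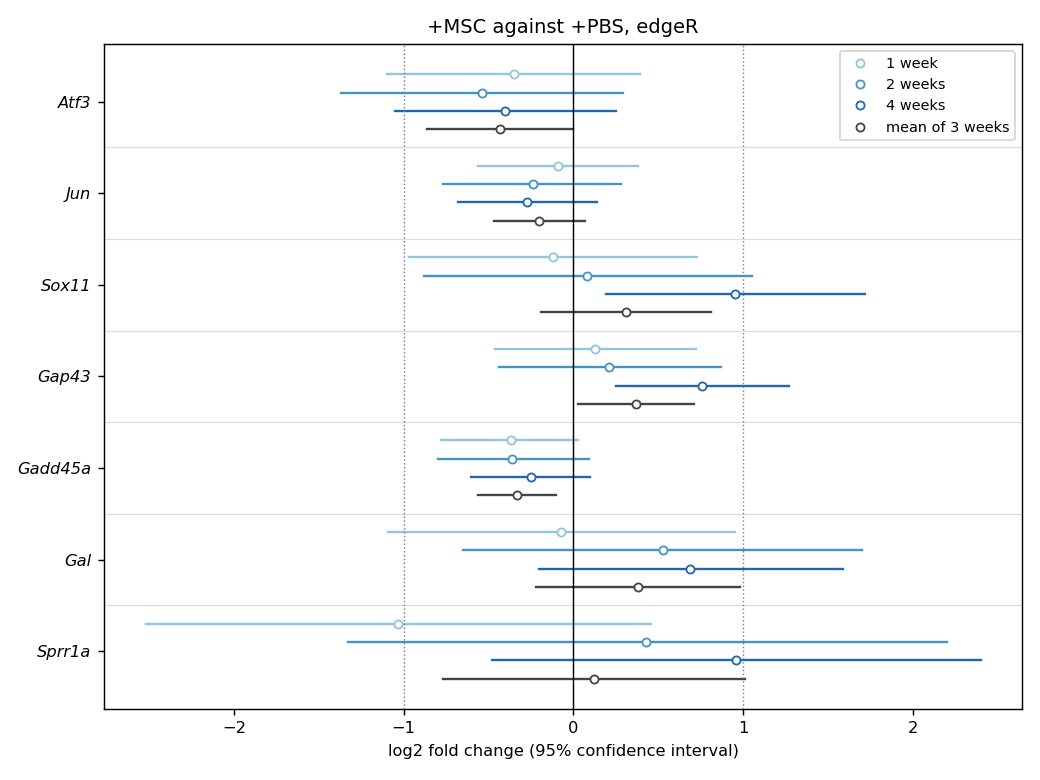
Log2 fold change of each gene in +MSC against +PBS (x axis) at 1, 2 and 4 weeks and as the mean of the 3 weeks, with 95% confidence intervals from edgeR; open points were not called, which is every point. Gap43 and Sox11 at 4 weeks lie to the right of 0 with intervals that do not reach it, as does Gap43 over the 3 weeks, and Gadd45a and Atf3 over the 3 weeks lie to the left in the same way.

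Against Intact, Atf3 and Gadd45a were called in cell-treated cord at each time. Atf3 was higher than in Intact by 4.44 (adjusted p = 2.28e-08), 3.71 (adjusted p = 2.89e-07) and 3.79 (adjusted p = 1.19e-07) on the log2 scale at 1, 2 and 4 wpt, and Gadd45a by 1.64, 1.29 and 1.24. Sox11 was called in +MSC-1w, where 4.09, 5.21 and 5.16 CPM stood against at most 2.22 CPM in Intact (log2 fold change 1.43, SE 0.392, adjusted p = 0.00795). That call was close to the threshold and was lost in 8 of 26 fits that each left out 1 library, with values from 1.37 to 1.56. Jun was under the fold threshold at each time, at 0.94, 0.60 and 0.62. A change of the cells' effect with the week was not detected for any member. From 1 to 4 wpt the +MSC to +PBS difference moved by 0.63 (SE 0.374) for Gap43, 1.07 (SE 0.549) for Sox11 and 1.99 (SE 0.997) for Sprr1a, each with an adjusted p of 0.999.

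Across the 26 libraries the members fell along different lines. The following correlations (Pearson's r of log2 CPM over 26 libraries in 8 groups, which share depth and cell make-up) are descriptions. Atf3 had r = 0.918 with Gadd45a, 0.850 with Jun and 0.840 with Sprr1a, but 0.094 with Gap43 and -0.279 with Gal. Over the 22 injured libraries alone these values were 0.648, 0.761, 0.582, -0.173 and -0.226. Jun and Sprr1a had r = 0.618 over all libraries, 0.21 over the injured ones and -0.143 as deviations from group means. Gap43 had r = 0.785 with Gal and 0.694 with Sox11. Taken as deviations from group means, Gap43 and Gal still moved together (0.844), as did Sox11 and Sprr1a (0.707) and Gap43 and Sprr1a (0.641), whereas for Atf3 and Gadd45a the value was 0.138. Atf3 and Gadd45a thus went together between conditions more than within them. Gap43 and Gal went together within some conditions, with their largest deviations in +PBS-1w and +PBS-4w. In +PBS-1w Gap43 deviated by 0.64, 0.17 and -0.81 on the log2 scale, and Gal by 0.6, 0.59 and -1.19. In +MSC-4w they did not go together, with 0.09, 0.08, -0.12 and -0.05 for Gap43 and 0.17, -0.29, 0.26 and -0.14 for Gal. The libraries labelled replicate 1 had the highest level of their group in 6 of 8 groups for Gap43, for Gal and for Gadd45a.

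The cell type markers were set beside the members in the same way. Atf3 and Gadd45a had r = 0.950 and 0.907 with the summed microglia and macrophage markers (0.756 and 0.668 over the 22 injured libraries), and Gap43 and Gal 0.031 and -0.348. Within groups the values for Atf3 and Gadd45a were 0.421 and 0.043. Jun and Sprr1a had r = 0.743 and 0.775 with these markers over the 26 libraries, and -0.255 and 0.142 within groups. With the summed fibroblast markers, Atf3, Gadd45a and Jun had r = 0.747, 0.567 and 0.820 over the injured libraries and 0.230, -0.341 and 0.275 within groups. Sox11, Gap43, Gal and Sprr1a had 0.034, -0.426, -0.342 and 0.195 over the injured libraries. Within groups they had -0.201, -0.542, -0.558 and -0.336. With the summed Schwann cell markers the same members had r = -0.598, -0.558, -0.333 and -0.535 over the injured libraries. Within groups their values were -0.401, -0.484, -0.323 and -0.396, and Atf3, Gadd45a and Jun had 0.353, -0.114 and 0.363. With the summed neuron markers Gap43 and Gal had r = 0.403 and 0.596 over the 26 libraries, and Atf3, Gadd45a and Jun had -0.71, -0.684 and -0.772. Within groups Gap43 and Gal had r = 0.722 and 0.796 with the summed neuron markers, against -0.130 and 0.234 for Atf3 and Gadd45a. The values within groups for the 8 astrocyte markers were also high, 0.758 for Gap43, 0.674 for Gal, 0.661 for Sox11 and 0.654 for Sprr1a. Markers of primary sensory neurons summed to 23.1 to 150 CPM over all groups. These neurons lie outside the cord in the dorsal root ganglia and are the textbook site of this programme. Each of the 7 markers had reads in every group taken as a whole, though not necessarily in every library. Which cells those reads came from was not tested. What part the cell make-up had in these patterns was not tested.

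**Figure D4:**
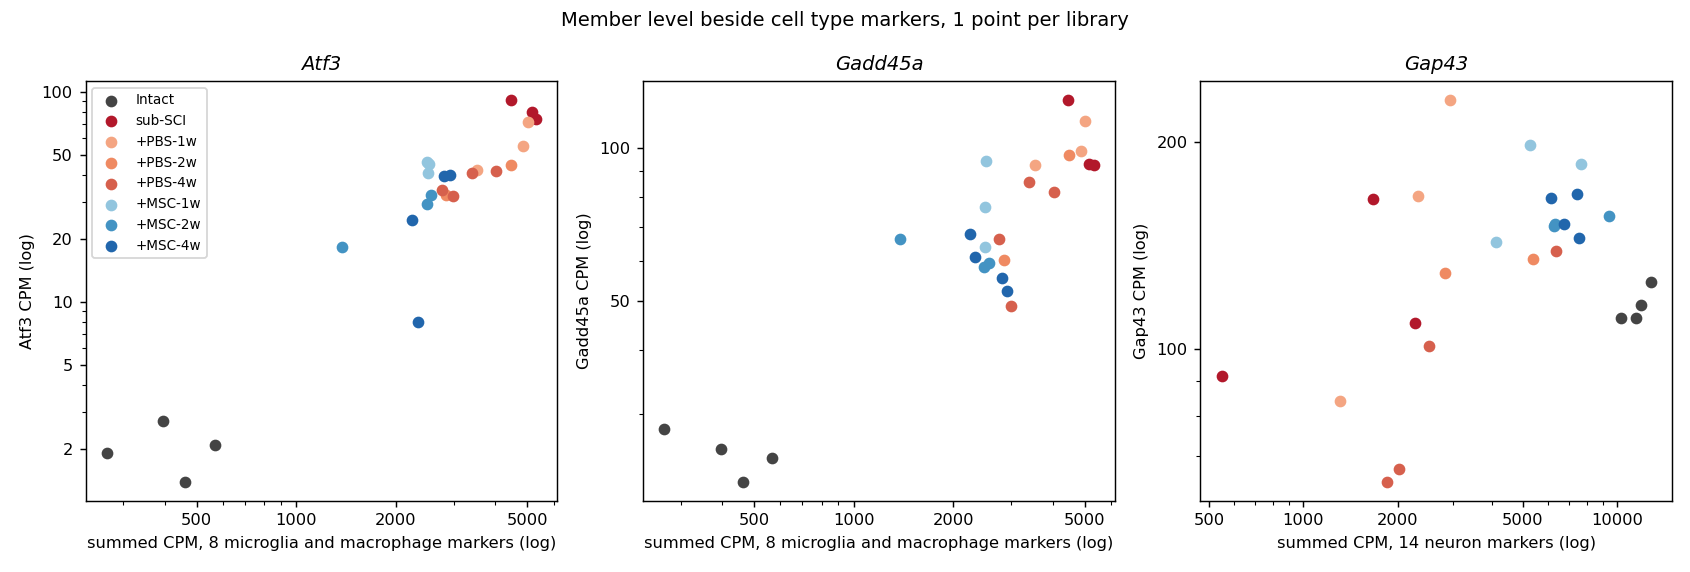
Level of Atf3 and Gadd45a against the summed CPM of 8 microglia and macrophage markers, and of Gap43 against that of 14 neuron markers, on log axes with 1 point per library and colours for the 8 groups. Atf3 and Gadd45a are higher where the marker sum is higher (r = 0.950 and 0.907), while the Gap43 points of Intact, sub-SCI and +MSC lie apart on the neuron axis at overlapping or nearby levels of Gap43.

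The genes most like each member over the 26 libraries were as follows. For Atf3 they were Cd300a and Cd300lf, receptors of myeloid cells, and Adcy4 (r = 0.978 each). Jun was most like Smim24 (0.928) and Plpp1 (0.922), and Gadd45a most like Gngt2 (0.961), Iah1 (0.961) and Sat1 (0.960). For Gap43 the nearest were Ecel1 (0.902), a peptidase induced in injured neurons, Gal (0.785) and Adcyap1 (0.739), which encodes the neuropeptide PACAP. Gal was closest to Dusp26 (0.862), the synaptotagmin Syt4 (0.804) and Tac1 (0.798), the substance P precursor. Sprr1a was most like Crisp3 (0.939), LOC498368 (0.919) and Parp1 (0.906), and Sox11 had no neighbour above 0.795, with Sprr1a second at 0.792.

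Genes around the members were counted in lists of the same biology, in sub-SCI against Intact. Of 10 AP-1 and ATF partners 4 rose and none fell. Batf, an AP-1 factor of immune cells, went from 0.289 ± 0.110 (n = 4) to 5.82 ± 1.23 CPM (n = 3, log2 fold change 4.33, SE 0.371), and Junb by 2.62, while Jund was not called at 0.42 (adjusted p = 0.0126). Of 12 other injury-responsive transcription factors 5 rose, led by Myc (2.46, SE 0.206), and Klf9, a repressor of axon growth, fell by 1.19. Of the DLK and JNK kinase arm, which acts on Jun from upstream, 8 of 10 genes fell and none rose. Mapk10, the JNK gene of neurons, fell by 3.09 on the log2 scale from 142 ± 13.6 to 16.7 ± 6.28 CPM.

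In the stress and growth arrest list, the class of Gadd45a, 6 of 10 rose and none fell. Its relatives Gadd45b and Gadd45g rose by 1.05 (SE 0.219) and 2.77 (SE 0.311) on the log2 scale. In the cytokine arm 7 of 11 rose, with Socs3, an inhibitor of JAK and STAT signalling, at 3.95 (SE 0.344), and 2 fell, among them the receptor gene Cntfr by 1.27. Growth cone and cytoskeleton genes were divided: 4 of 15 rose and 6 fell. The tubulin Tubb6 rose by 4.27 and Map1b, a microtubule protein of neurons, fell by 2.59. Of 10 membrane and adhesion effectors 6 rose, such as the hyaluronan receptor Cd44 (2.42), and the calcium channel subunit Cacna2d1 fell by 2.21. Both galanin receptors in the table fell, Galr1 by 3.12 (SE 0.585) from 6.37 ± 1.16 to 0.720 ± 0.537 CPM and Galr3 by 2.40 (SE 0.473), and of 7 neuropeptide genes tested 1 fell, Cck by 1.73 (SE 0.550). Of the cornified envelope relatives of Sprr1a only Tgm1 had enough counts, and it rose by 1.67 (SE 0.414). The shares to read these counts against are the 16.6% higher and 17.5% lower given above, and the neuron and microglia and macrophage markers moved beside them.

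**Figure D5:**
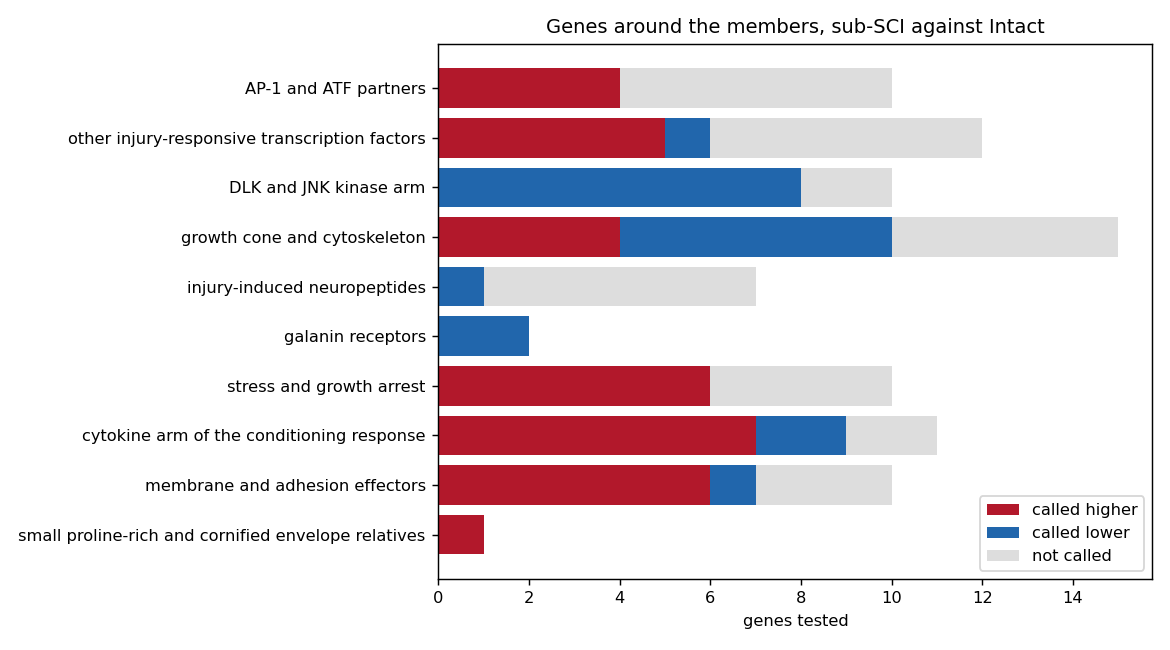
Number of tested genes (x axis) called higher, called lower or not called in sub-SCI against Intact, for each of 10 lists around the members. The DLK and JNK kinase arm has 8 genes lower and none higher, and the stress and growth arrest list 6 higher and none lower.

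At 4 wpt 2 of these genes were called between +MSC and +PBS, both of them higher with the cells. Among all genes tested 0.495% were called in this comparison, 89 higher and 0 lower, so every call went that way. Mapk10 stood at 81.3 ± 20.3 CPM in +MSC-4w and 35.1 ± 5.91 CPM in +PBS-4w (n = 4 each, log2 fold change 1.21, SE 0.230, adjusted p = 0.00693), and Map1b at 1956 ± 186 and 781 ± 111 CPM (1.32, SE 0.199, adjusted p = 0.00312). Both calls were lost with edgeR fitted to the 2 groups alone (adjusted p = 0.0353 and 0.0181) and without +MSC-4w replicate 1 (log2 fold change 1.03 and 1.26) or +PBS-4w replicate 2 (1.12 and 1.28), and that of Mapk10 in 12 of the 26 fits that left out 1 library, with values from 1.03 to 1.3. Without the replicate 1 libraries other than that of +PBS-2w, Mapk10 was not called (1.16, adjusted p = 0.0141) and Map1b was (1.24, adjusted p = 0.00922). Over the mean of the 3 weeks Map1b was called, just past the fold threshold (SE 0.134, adjusted p = 0.000167). Mapk10 was not called there (0.99, SE 0.155, adjusted p = 0.000456). Both are neuronal genes that were called lower in sub-SCI and in +PBS-4w than in Intact, where their means were 142 and 3174 CPM. Galr1 had a log2 difference of 1.36 (SE 0.491, adjusted p = 0.108), and Junb, Gadd45b and Gadd45g of -0.63, -0.28 and -0.29, none called. The neuron markers given above for these groups moved with Mapk10 and Map1b, and their part was not tested.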

How the data were processed

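Raw read counts per Ensembl gene, with gene symbol and length, were deposited by the authors as 1 table of 26 libraries. By the study's methods and the submitters' processing notes the authors used Trim Galore 0.5.0 for trimming, discarded reads matching human GRCh38, mapped what remained to rat Rnor6 by HISAT2 2.1.0, selected properly paired reads by SAMtools 1.9 and obtained gene counts from featureCounts 1.6.4. The annotation release and strand setting are not given in the sources used here, so reads of overlapping genes may be misassigned, and conserved rat reads may have been lost to the human filter in every library. The counts in each library's own file equalled the table.

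Counts were tested with edgeR 4.0.16 (limma 3.58.1, R 4.3.3): TMM scaling, filterByExpr by group, and the quasi-likelihood test in 1 model of 26 libraries and 8 groups, so that the 2 libraries of +PBS-2w borrow the common spread. Benjamini-Hochberg adjustment ran over 17990 genes. Calls needed a log2 fold change above 1 in size and an adjusted p under 0.01, the thresholds of the study; changes of the cells' effect with the week needed an adjusted p under 0.05. SE was the log2 fold change divided by the square root of F, and 95% intervals used the fit's degrees of freedom. Correlations used log2 CPM with a prior count of 2.

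The members and lists were chosen with earlier results of these data known. Named are the 7 members, from each pathway list the called gene with the smallest adjusted p in each direction (sub-SCI against Intact), relatives of members, and the 3 genes most correlated with each member. 1 gene that this rule names is not reported here. Junb, Jund, Gadd45b, Gadd45g, Galr1 and Galr3 are those relatives, and Sox4 and Galr2 were not analysed here. Marker lists were those of neurons, motor neurons, primary sensory neurons, oligodendrocytes, astrocytes, microglia and macrophages, Schwann cells, fibroblasts, endothelial cells, keratinocytes and skeletal muscle. Alternatives were DESeq2 1.42.0 on all libraries and on the groups compared, edgeR on the groups compared, median-of-ratios scaling, no filter, a replicate block, a term for the libraries labelled replicate 1, each library left out and, added after seeing the data, the replicate 1 libraries left out. Replicate numbers paired libraries by their correlated deviations only in +PBS-1w against sub-SCI (r = 0.191 to 0.411 over 3 pairs), where the block changed no call of a member.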

Additional observations from a re-analysis of the deposited data

Results flagged for a closer look

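Dixon's test at the 95% level was run on CPM in the groups of 4 libraries, 21 groups of values over the 7 genes, and marked 2, where chance marks about 1 in 20. Both were Sprr1a. Intact replicate 1 had 0.0546 CPM, its only read, against 0 in the other Intact libraries. Where all the others are 0 the test marks any value above 0, so this flag was fixed in advance. In +MSC-4w replicate 1 had 0.159 CPM, from 4 reads, against 0.940, 0.930 and 0.860 CPM in the others. No difference between weeks in the effect of the cells passed the test for any member.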

How the results depend on the processing

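Over the 7 genes and 16 comparisons, 820 of the values under the alternatives to the edgeR fit kept their direction and their side of the thresholds, and 31 did not. Rising calls of Atf3 and Gadd45a over Intact held in all of them. Members called lower in +PBS-4w against sub-SCI numbered 0 in the fit reported, 1 with DESeq2 on all libraries, 2 with DESeq2 on the groups compared, 1 with edgeR on the groups compared and 2 without the replicate 1 libraries, and from 0 to 1 when single libraries were left out (1 without +PBS-1w replicate 3, +MSC-4w replicate 1 or +PBS-4w replicate 1); those called lower in +PBS-4w against Intact also ran from 0 to 1 (1 without +PBS-4w replicate 1). Counts over all genes moved more. In +MSC-4w against +PBS-4w edgeR called 89 higher and 0 lower, DESeq2 on all libraries 293 and 12, DESeq2 on the groups compared 234 and 17, and edgeR on the groups compared 0 and 0 (2520 at an unadjusted p under 0.05), with 3 higher without +MSC-4w replicate 1 or +PBS-4w replicate 2 and 484 higher without +PBS-4w replicate 1. At 1 wpt edgeR called 0 and 2, DESeq2 on all libraries 30 and 40 and on the groups compared 231 and 114; at 2 wpt DESeq2 on the groups compared called 80 and 337. Over the 3 weeks the counts were 290 and 172, and 34 and 11 without +PBS-2w replicate 1. Sox11 in sub-SCI against Intact was called with both forms of DESeq2 (1.17 and 1.18) and edgeR on the groups compared (1.18). In +PBS-1w against Intact it was not called with edgeR on the groups compared (1.6, adjusted p = 0.0199). The cause was not tested.

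The replicate block turned 2 values near 0, Gal in +MSC-1w against +PBS-1w (0.04) and in +MSC-4w against Intact (0.04), and ended the call of Sox11 in +MSC-1w against Intact (1.39, adjusted p = 0.0155), a call also lost without any one of the 4 Intact libraries, the 3 +MSC-1w libraries or +MSC-4w replicate 4. It changed no other call of a member. Over 12 comparisons every same-numbered pair had r above 0.1 in 1 only. Elsewhere the labels give no more than a shared number, and some pairs still went together, with r = 0.016 to 0.233 in +MSC-4w against +PBS-4w, where 3 of 4 pairs were best with their own number, and 0.317 for the replicate 1 pair of +MSC-4w and Intact. With the block the Gap43 difference in +MSC-4w against +PBS-4w was 0.81 (adjusted p = 0.0326).

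Without the replicate 1 libraries (other than that of +PBS-2w, which has only 2 libraries), an alternative chosen after seeing the data, values that turned were Gap43 in sub-SCI against Intact (-0.16), Gadd45a in +PBS-1w (0.15) and Gal in +PBS-4w (-0.40) against sub-SCI, Sox11 (0.55), Gal (0.05) and Sprr1a (0.17) in +MSC-1w against +PBS-1w, and Gal in +MSC-4w against Intact (0.02). The weekly differences that turned were Atf3 (0.06), Sox11 (-0.11) and Gap43 (-0.23) from week 1 to 2, Atf3 (0.38) from week 1 to 4 and Jun (0.15) from week 2 to 4. Under these conditions Sox11 in +PBS-1w against Intact was 0.94 and not called, and Gap43 in +MSC-4w against +PBS-4w was 1.03 (adjusted p = 0.0153). Gal in +MSC-4w against Intact turned to 0.01 with DESeq2 on the groups compared, to 0.02 with edgeR on the groups compared and to 0.02 with no filter, where Jun from week 2 to 4 turned to 0.02.

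Leaving out single libraries turned the following log2 values, given as lowest and highest. Against Intact they were Gap43 in sub-SCI (-0.21 to 0.24), Gal in +PBS-1w (-0.06 to 0.57), Sox11 in +PBS-4w (-0.06 to 0.10), and Gal in +MSC-1w (-0.01 to 0.21) and +MSC-4w (-0.12 to 0.09). Against sub-SCI they were Sox11 (-0.15 to 0.82), Gadd45a (-0.11 to 0.13) and Sprr1a (-0.42 to 0.87) in +PBS-1w and Gal in +PBS-4w (-0.67 to 0.39). Between +MSC and +PBS they were Sox11 (-0.53 to 0.44), Gap43 (-0.18 to 0.48) and Gal (-0.46 to 0.17) at 1 wpt, Sox11 (-0.23 to 0.43) and Gadd45a (-0.66 to 0.03) at 2 wpt and Sprr1a over the 3 weeks (-0.12 to 0.40). For the weekly differences they were, from week 1 to 2, Atf3 (-0.41 to 0.13), Jun (-0.27 to 0.01), Sox11 (-0.35 to 0.61), Gap43 (-0.27 to 0.39) and Gadd45a (-0.28 to 0.45), from week 1 to 4, Atf3 (-0.27 to 0.26), Jun (-0.30 to 0.05) and Gadd45a (-0.02 to 0.28), and from week 2 to 4, Atf3 (-0.15 to 0.45), Jun (-0.18 to 0.20), Gadd45a (-0.32 to 0.40) and Gal (-0.37 to 0.90). None of these was called in the fit reported. Calls were gained by Jun in +PBS-2w (1.00 without Intact replicate 2), +PBS-4w (1.00 to 1.06 without Intact replicate 1, Intact replicate 2 or +PBS-4w replicate 1) and +MSC-1w (1.01 to 1.09 without Intact replicate 1, Intact replicate 2 or +MSC-1w replicate 3) against Intact, and by Sox11 in sub-SCI (1.14 to 1.15 without +PBS-1w replicate 1, +PBS-1w replicate 3 or +MSC-2w replicate 1). Sprr1a rests on 0 to 151 reads per library, which limits its precision.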

Other observations

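Marker sums of further cell types, and of some named above, are given here by group. Schwann cell markers summed to 1550 to 3216 CPM in +PBS-4w and 250 to 1824 CPM in +MSC-4w, against 39.8 to 1246 CPM in Intact. Fibroblast markers summed to 6864 to 14029 CPM in sub-SCI and 159 to 1085 CPM in Intact. In +PBS-1w 1 library of 3, replicate 3, had a Schwann cell sum of 3194 CPM beside 305 and 358 CPM in the others. The same library had the highest fibroblast sum of its group, 7942 CPM. Its neuron, oligodendrocyte and astrocyte sums, 1309, 11216 and 7115 CPM, were the lowest of the group. In it Sox11, Gap43, Gal and Sprr1a were lowest and Atf3, Jun and Gadd45a highest of the group. Endothelial markers, with 1 of 6 listed genes not in the table, ran from 185 to 637 CPM over all groups. Motor neuron markers summed to 339 to 501 CPM in Intact and 44.6 to 154 CPM in sub-SCI. At 4 wpt their sums overlapped, at 123 to 417 CPM in +PBS-4w and 369 to 557 CPM in +MSC-4w. Oligodendrocyte markers summed to 50017 to 56551 CPM in Intact and 16761 to 34305 CPM in sub-SCI, astrocyte markers to 11652 to 13372 and 6205 to 12225 CPM, and skeletal muscle markers to 12.2 to 350 and 16.2 to 22.5 CPM. These are values with no test.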
